A study of Mus musculus with 4 samples.

Results

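Regions of open chromatin that were shared by wild-type (WT) and TET-deficient (TCKO) osteoblasts, but held at least 2-fold more reads in TCKO after scaling, were described here with their nearest genes and the sequence they contain. A member was an autosomal region of the count table that overlapped a peak of both genotypes, held at least 60 TCKO counts and reached a log2 ratio (scaled TCKO count over WT count, 1 added to both) of 1 or more. Of the 255864 regions in the table, 142129 were autosomal and called in both genotypes, and 115214 of these held at least 60 TCKO counts and are termed eligible. Of the eligible regions 9200 were members, or 7.99%. In all regions of the table, shared or not, 12.3% reached the same ratio. In the opposite direction, among shared regions with at least 60 WT counts, 1.62% were at least 2-fold lower, which gave a set of 2010 lower regions. The direction of this balance depended on the scaling by total counts. Higher regions made up 82.1% of the higher and lower regions together with it, but 3.27% without scaling (795 higher and 23507 lower) and 7.26% when depth was judged by the lowest background in each peak list (1278 and 16333). Which scaling fits these libraries was not tested, and ratios below are relative to the total counts. The members were chosen by these same counts and ratios, which are therefore given as a description only.

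The libraries were made by ATAC-seq, in which the transposase Tn5 inserts sequencing adapters into accessible DNA, from primary osteoblasts of 3-day-old C57BL/6 mice. TCKO mice carried Prx1-Cre with floxed alleles of all TET genes, Tet1fl/fl Tet2fl/fl Tet3fl/fl, and WT mice were labelled as wild type, without a statement of which floxed alleles or Cre they carried. Prx1-Cre is driven by regulatory sequence of *Prrx1* and is active in the early limb and part of the skull mesenchyme, so cells of other origin in a culture would keep their TET genes. The labels list 2 samples per genotype and a protocol text 3 repeats, but the deposited table holds 1 merged column per genotype, so no test of the genotype difference can be made, and the 95% intervals given below (Wilson) cover counting error only.

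TET enzymes oxidise 5-methylcytosine, mostly in CpG dinucleotides, as a step towards its removal. Enhancers distant from genes are generally poor in CpG, whereas most promoters of widely expressed genes lie in CpG islands that remain unmethylated. AP-1 is a family of dimers of FOS, JUN and related basic leucine zipper (bZIP) proteins that bind TGACTCA or TGAGTCA, which are the same site read on opposite strands, and it occupies many enhancers of mesenchymal cells. A methylated cytosine carries its methyl group at the ring position where thymine carries its own. DNA methylation was not measured in these libraries.

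The sequences of members that the results turn on are shown first. Each is the 200 bp around the midpoint of a region, on the plus strand of GRCm38 (RefSeq genome), with the AP-1 consensus or its CpG variant (CGACTCA or CGAGTCA on either strand) in capitals. The first 3 held the consensus and stood highest in the rank of members by the lower bound of the interval, among regions whose window held no exon. They lie at chr8:63335235-63335434, chr10:32984982-32985181 and chr6:27542839-27543038.
Spock3: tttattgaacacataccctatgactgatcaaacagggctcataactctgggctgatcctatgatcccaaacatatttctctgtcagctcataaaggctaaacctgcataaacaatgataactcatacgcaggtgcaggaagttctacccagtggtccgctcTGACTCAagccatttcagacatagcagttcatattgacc
Nkain2: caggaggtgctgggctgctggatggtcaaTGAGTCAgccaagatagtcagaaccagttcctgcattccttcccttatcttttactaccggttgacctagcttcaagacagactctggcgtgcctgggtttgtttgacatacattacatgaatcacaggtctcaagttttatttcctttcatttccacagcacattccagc
Grm8: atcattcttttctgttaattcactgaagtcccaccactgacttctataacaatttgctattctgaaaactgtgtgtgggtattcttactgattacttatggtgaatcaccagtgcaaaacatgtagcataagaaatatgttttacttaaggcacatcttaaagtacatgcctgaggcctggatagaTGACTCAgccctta
The next 4 had a CpG variant and no consensus in the window, and were taken in the same rank after the enrichment of these variants was seen. They lie at chr10:119834315-119834514, chr13:31639551-31639750, chr10:107417809-107418008 and chr11:34312121-34312320, and each is named by its nearest protein-coding gene.
Grip1: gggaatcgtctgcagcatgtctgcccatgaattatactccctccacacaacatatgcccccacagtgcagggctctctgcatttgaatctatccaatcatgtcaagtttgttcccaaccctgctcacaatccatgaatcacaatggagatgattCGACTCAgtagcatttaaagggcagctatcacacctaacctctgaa
Foxf2: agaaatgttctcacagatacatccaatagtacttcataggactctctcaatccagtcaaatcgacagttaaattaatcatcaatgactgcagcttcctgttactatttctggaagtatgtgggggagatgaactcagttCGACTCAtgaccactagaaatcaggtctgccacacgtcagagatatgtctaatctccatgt
Myf5: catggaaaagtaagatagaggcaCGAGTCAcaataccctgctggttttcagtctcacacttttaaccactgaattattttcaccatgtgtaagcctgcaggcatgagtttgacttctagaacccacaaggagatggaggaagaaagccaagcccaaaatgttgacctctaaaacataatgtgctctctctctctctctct
Fam196b: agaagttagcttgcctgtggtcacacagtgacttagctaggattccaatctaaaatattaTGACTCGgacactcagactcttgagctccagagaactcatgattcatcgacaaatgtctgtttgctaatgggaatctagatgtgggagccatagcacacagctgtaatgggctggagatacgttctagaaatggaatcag
One promoter member with many counts and neither sequence is shown for contrast, at chr19:10056778-10056977.
Fads3: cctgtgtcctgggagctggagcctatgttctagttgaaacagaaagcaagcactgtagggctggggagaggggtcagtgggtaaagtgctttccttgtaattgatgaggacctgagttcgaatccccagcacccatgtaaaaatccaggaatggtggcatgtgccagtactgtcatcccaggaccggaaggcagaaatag

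The members were weak to moderate regions. The WT counts had a median of 73 (quartiles 54 and 113) and the TCKO counts a median of 113 (82 and 172), before any scaling. The rest of the eligible regions had medians of 244 and 151 counts and the lower regions of 429 and 108. All 9200 members held more reads in TCKO than in WT before scaling, which the cutoff requires with a factor of 1.64 on TCKO. Their median unscaled ratio was 1.45. The TCKO column had a total of 34608167 counts against 56898657 for WT. Members took up 1.57% of all reads counted in WT and 3.88% of those counted in TCKO. They were narrow, with a median width of 312 bp against 447 bp in the rest and 558 bp in the lower regions.

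The peak lists gave a second view of the same libraries, because the number of reads stacked at each summit could be recovered from the fold and the p-value of the peak caller. At the strongest summit the median pileup of the members was 15 reads in WT and 21 in TCKO, and it was higher in TCKO in 8222 of the 9200 members (89.4%). In the rest the medians were 32 and 23, and 11.5% were higher in TCKO. Around the members the local background of the peak caller had a median of 2.12 reads in WT, near its lowest WT value of 1.98. In TCKO the median was 2.46 reads, and in the rest the medians were 3.85 and 3.33. These are the reads the rule used and do not check it.

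Most members lay close to the cutoff. The log2 ratio had a median of 1.24 and a maximum of 3.17, with 4727 members (51.4%) between 1 and 1.25, 2537 between 1.25 and 1.5, 1742 between 1.5 and 2, and 194 at 2 or more. In 2747 members the whole interval lay past the cutoff. The 5 members just inside had ratios of 1.00007 to 1.00035, and the 5 eligible regions just outside had ratios of 0.99987 to 0.999901. Of the former, a region near *Tmem184b* held 205 WT and 250 TCKO counts, and of the latter, a region in an intron of *Foxp1* held 85 and 104, and the interval of each includes the cutoff.

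Members were spread over all 19 autosomes, from 6.26% of the eligible regions of chromosome 17 to 9.32% of chromosome 18. Of 2385 windows of 1 Mb with an eligible region, 2219 held a member, with a median of 4. They were found mainly outside promoters. Promoters, taken as the 1 kb on either side of a protein-coding start, contained the midpoints of 171 members, or 1.86% (1.6% to 2.16%), against 15.7% of the rest and 3.18% (2.50% to 4.05%) of the lower regions. Introns held 43.3% of the members, 39.6% of the rest and 49.7% of the lower regions. Intergenic sequence held 52.9%, 42.0% and 44.5%, respectively.

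The share of eligible regions that were members rose with the distance to the nearest protein-coding start. It was 1.02% (0.876% to 1.18%) under 1 kb, 4.89% at 1 to 5 kb, 7.78% at 5 to 20 kb, 7.76% at 20 to 50 kb, 8.93% at 50 to 100 kb, 11.2% at 100 to 200 kb, 15.2% (14.5% to 16.0%) at 200 to 500 kb and 23.4% (21.9% to 25%) beyond 500 kb. The bins at 5 to 20 and 20 to 50 kb did not differ beyond counting error, and otherwise each bin was higher than the one before it. The median distance was 52.9 kb for the members, 22.6 kb for the rest and 41.0 kb for the lower regions. CpG number and background fell along the same bins. The median CpG number per 200 bp went from 14 under 1 kb to 2 between 5 and 500 kb and 1 beyond. The median WT background of the peak caller went from 5.94 reads under 1 kb to 1.98 reads beyond 500 kb, which is the lowest value in the WT peak list. The count minimum was set on TCKO alone, and the share of members also differed with the counts. It was 69% where the mean of WT and scaled TCKO counts was below 80, and 1.26% at 400 or more. The trend was not examined at fixed counts. The part of CpG number, background and counts in it was not tested.

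**Figure D1:**
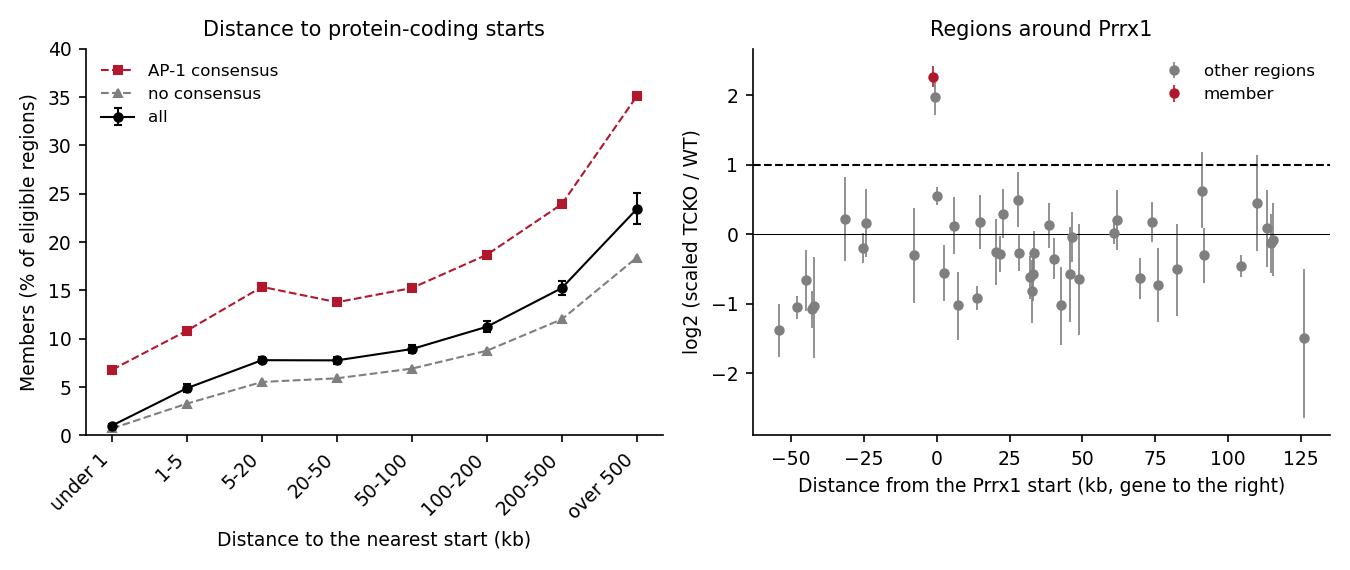
Left, the percentage of eligible regions that were members by distance to the nearest protein-coding start in kb, for all regions (black, bars are 95% Wilson intervals) and for windows with (red) and without (grey) the AP-1 consensus; beyond 500 kb these reached 23.4%, 35.1% and 18.4%. Right, the log2 ratio of each region around *Prrx1* with its 95% counting interval against distance from the start in kb, where the member (red, 2.27) and the region beside it stood above the cutoff (dashed) and the others did not.

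The sequence of the members was poor in CpG. The central 200 bp held a median of 1 CpG in the members and 3 in the rest and in the lower regions. No CpG was found in 26.2% of the members, against 12.3% of the rest and 5.42% of the lower regions, whereas 5 or more were found in 5.53%, 28.3% and 31.2%. GC content had a median of 45.5% in the members, 49.5% in the rest and 49.0% in the lower regions. Repeat-masked bases had a median share of 9.5%, 1.5% and 0%, and 709 members (7.71%) were masked over more than 50% of the window, against 4.18% of the rest.

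The AP-1 consensus was the sequence most frequent in the members relative to the rest among the 28 families searched. It lay in the central 200 bp of 3949 members, or 42.9% (41.9% to 43.9%), of 19.3% of the rest and of 7.21% (6.16% to 8.43%) of the lower regions. In all regions of the table the share was 18.6%. Viewed from the sequence, 16.2% of the 24376 eligible regions with the consensus were members, against 5.78% of the 90838 without it, and the median log2 ratio was 0.41 and 0.03. These medians are of the ratio that the rule used, over all eligible regions, and are no second support.

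**Figure D2:**
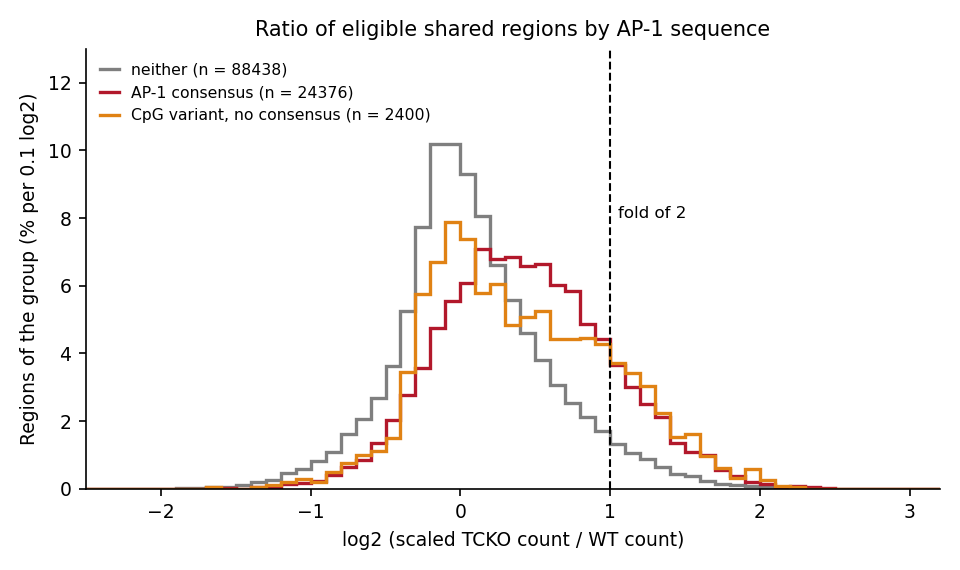
Distribution of the log2 ratio of scaled TCKO to WT counts over the eligible regions, as the percentage of each group per bin of 0.1, for windows with the AP-1 consensus (red, n = 24376), with a CpG variant and no consensus (orange, n = 2400) and with neither (grey). Of the first and second groups, 16.2% and 18.5% lie past the cutoff of 1 (dashed).

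The position of the consensus differed little from that in the rest once width was held. Over the whole region, 4887 members held it, and in 47.8% (46.4% to 49.2%) of these the nearest site was within 25 bp of the strongest TCKO summit, against 39.7% in the rest and 22.3% (18.1% to 27.0%) in the lower regions. The median distance from site to summit was 27, 34 and 70 bp. The members were also the narrowest regions, which shortens this distance. In regions under 300 bp wide the shares within 25 bp were 53.9% (51.9% to 56.0%) for the members and 50.2% (49.0% to 51.3%) for the rest. At 300 to 400 bp they were 47.1% and 44.3%, and at 400 to 600 bp 41.0% and 39.5%, where the intervals overlapped. At 600 bp or more they were 34.8% (30.1% to 39.8%) and 30.3% (29.4% to 31.2%). Of the members with a site, 4024 had a single site, 772 had 2 and 91 had 3 or more, with a maximum of 6. The frequency changed little with the size of the ratio, at 41.8% of members with a log2 ratio of 1 to 1.25, 43.2% at 1.25 to 1.5, 45.2% (42.9% to 47.6%) at 1.5 to 2 and 44.3% (37.5% to 51.4%) at 2 or more.

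The difference between members and the rest was present in all strata examined. In the quartiles of GC content, from low to high, the consensus lay in 39.9%, 45.1%, 45.9% and 41.0% of the members and in 23.7%, 24.1%, 21.3% and 9.59% of the rest. For regions with 60 to 80 TCKO counts the shares were 44.2% and 21.3%, and with 400 or more they were 38.5% and 14.6%. By the mean of WT and scaled TCKO counts the difference was smallest below 80, at 45.1% (42.0% to 48.3%) and 33.6% (29.4% to 38.2%). In that stratum 69% of the eligible regions were members. Away from promoters they were 43.1% and 22.0%. At promoters the members had the consensus in 33.3% and the rest in 4.70%. It was also seen at all distances from genes: beyond 500 kb, 35.1% of the eligible regions with the consensus and 18.4% of those without were members.

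CpG number and the consensus were each related to membership at fixed levels of the other. Without CpG, 12.3% (11.7% to 12.9%) of the eligible regions with no consensus were members, 22.6% (21.4% to 23.9%) of those with 1 and 29.4% (25.5% to 33.7%) of those with 2 or more. With 5 or more CpG, these shares were 1.22%, 6.27% and 6.97% (4.19% to 11.4%). Between these ends the share fell with each added CpG in all 3 classes. The regions without CpG and with 2 or more sites were few, with 139 members among 472.

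**Figure D3:**
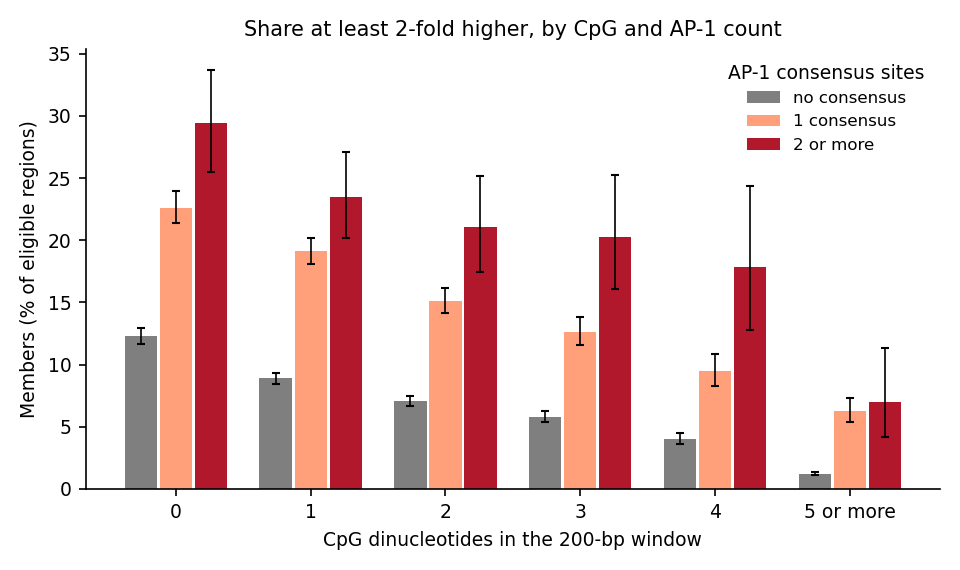
Members as a percentage of eligible regions by the number of CpG in the 200-bp window, for windows with no (grey), 1 (light orange) or 2 or more (dark red) AP-1 consensus sites. Bars start at 0 and whiskers are 95% Wilson intervals; the highest bar is 29.4% and the lowest 1.22%.

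No other family was as much more frequent in the members. The SOX sequence ACAATG was found in 12.7% of the members and 8.56% of the rest. For TEAD factors, effectors of Hippo signalling, the search took ACATTCC and also accepted GCATTCC, and found 11.9% and 9.50%. The GATA sequence AGATAA was present in 8.17% and 6.43%. The E-box CATCTG, of TWIST-type factors, was present in 21.2% and 18.1%. TGACTCAGC, an AP-1 site that runs into a MAF sequence and so overlaps the AP-1 search, was found in 3.63% and 2.17%. In non-promoter windows with the AP-1 consensus, however, TGACTCAGC was found in 8.48% of the members and 11.3% of the rest. The Runt sequence TGTGGTT, bound by RUNX factors, which drive osteoblast differentiation, was found in 9.15% (8.58% to 9.76%) of the members, 8.04% of the rest and 10.9% (9.65% to 12.4%) of the lower regions. Away from promoters these were 9.13% for the members and 9.04% for the rest, which is within counting error.

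At the other end were sequences of promoters and insulators. The CTCF consensus was in 23 members, or 0.250% (0.167% to 0.375%), against 3.12% of the rest. The SP and KLF sequence GGGCGGG was in 0.826% against 6.59%, and the ETS sequence CCGGAAG in 0.533% against 2.25%. TTGGCA, to which nuclear factor I binds, was in 10.6% of the members, 13.9% of the rest and 26.9% of the lower regions. The cAMP response element TGACGTCA, a bZIP site with a CpG in its centre, was in 0.326% (0.229% to 0.465%) and 0.524%, but away from promoters in 0.321% and 0.370%, which is within counting error.

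**Figure D4:**
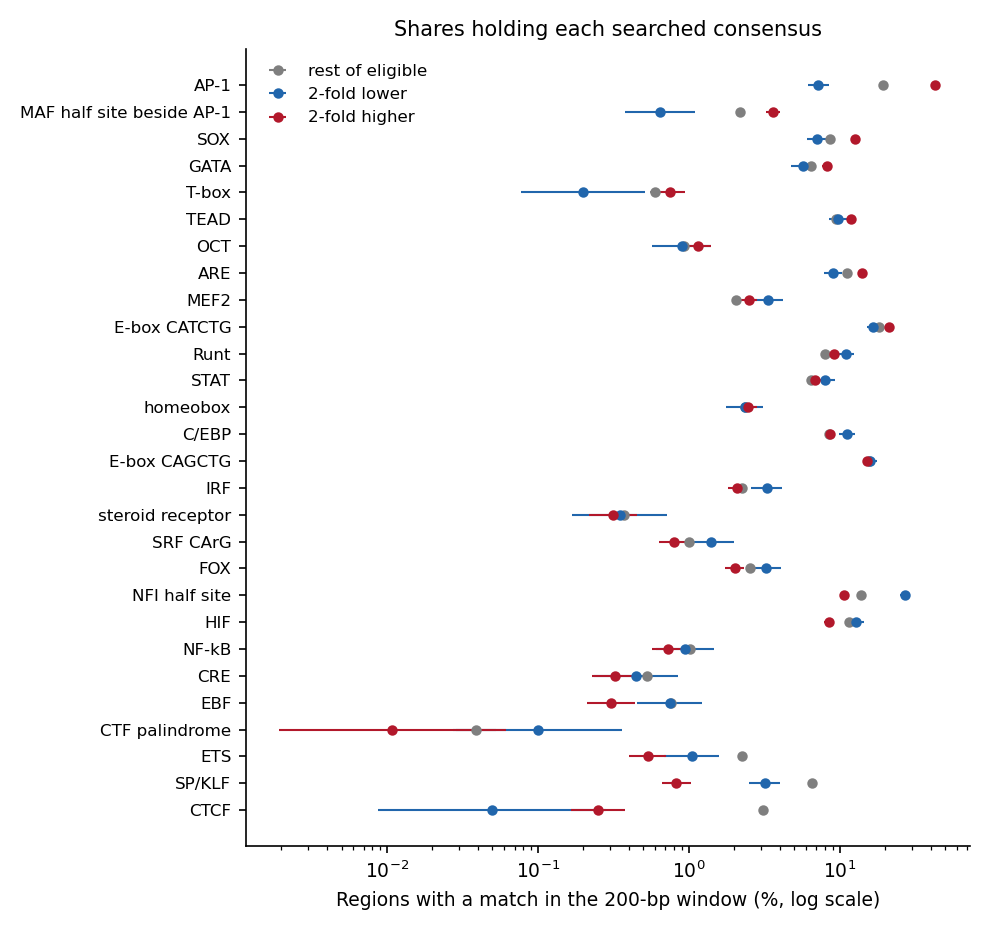
Percentage of regions with a match to each searched consensus on either strand of the 200-bp window (log scale), for members (red), the rest of the eligible regions (grey) and the lower regions (blue), ordered by the ratio of members to the rest. Whiskers are 95% Wilson intervals; AP-1 is at the top (42.9%, 19.3% and 7.21%) and CTCF at the bottom (0.250%, 3.12% and 0.0498%).

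Short words were also counted without reference to any factor, in the same windows of the same regions. Words inside the AP-1 consensus therefore restate its frequency in part. Of 2077 6-mers, counted together with their reverse complement and present in at least 0.5% of the members or the rest, the 15 with the highest ratio of shares had ratios of 1.85 to 2.04. The first was TAGTCA, in 20.8% of the members and 10.2% of the rest. GAGTCA and GACTCA, which lie inside the consensus, were in 52.3% and 49.8% of the members and in 27.0% and 25.8% of the rest. ACTCAT at 2.02 times, then AGTCAT at 2.01 and GACTAA at 1.91, overlap the consensus or single-base variants of it. GATTCA at 1.88 times and GAATCA at 1.86 lie inside the variant with A or T in the centre. Others were TCATGA at 2.0 times, GTCATA in 13.3% against 6.81%, ATCATA at 1.91 times, CATATG at 1.87, CATATA at 1.86, GTATGA at 1.85 and AATCAT at 1.85. None of the 15 held a CpG, and all 50 words with the lowest ratio did.

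With 8-mers a different pattern was seen. The 6 words of 17562 with the highest ratio all contained a CpG, although 993 of all words did. ACGACTCA was 5.25 times as frequent in the members as in the rest, in 119 of them. ATGAGTCG followed at 4.31 times, then ACGAGTCA at 4.06, then CGACTCAC at 3.65, then ATGACTCG at 3.63, and then GCGAGTCA at 3.62. Each is the AP-1 consensus with its outer T replaced by C (on one strand or the other) so that a CpG is formed. Following this, which was seen in the data first, all 19 single-base variants of the consensus were compared among eligible regions without the consensus itself. The 2 variants in which a CpG forms at the outer edge ranked first. Among 1408 regions with TGACTCG there were 268 members, or 19% (17.1% to 21.2%). Among 1023 regions with CGACTCA there were 188, or 18.4% (16.1% to 20.9%). They were followed by TGACTAA with 16.1% (15.1% to 17.1%), TGAATCA with 15.8% (14.9% to 16.7%) and TTACTCA with 14.1%. The interval of TGACTAA overlapped those of both CpG variants, and that of TGAATCA overlapped that of CGACTCA. The lowest was TGACGCA, in which the CpG lies inside the site, with 3.52% (2.49% to 4.95%) of 881 regions. The value for all regions without the consensus was 5.78%.

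The 2 CpG variants were then compared with windows lacking them at a given CpG number, which was not done for the other variants. In windows with 2 CpG and no consensus, 415 regions had a CpG variant, and 28.4% (24.3% to 33.0%) of these were members. Of the 14940 without one, 6.45% (6.07% to 6.86%) were. With 1 CpG, which is then the one in the variant, the values were 27.0% (22.0% to 32.7%) and 8.61%, with 3 they were 28.3% and 5.02%, and with 5 or more 7.33% and 1.0%. In all, 588 members (6.39%) had a CpG variant, against 2.44% of the regions of any count called in both genotypes, members included. The consensus or a CpG variant was in 4392 members (47.7%), and the share in the rest was not computed. The consensus or any single-base variant was found in 86.3% of the members and in 59.4% of the rest, which shows how common such words are in 200 bp.

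Regions called in a single genotype were not used by the rule. They come from the same libraries, however, and were also sorted by which genotype held the signal. Among regions called in TCKO alone, 27.3% (26.7% to 27.8%) had the consensus and 3.98% (3.75% to 4.23%) a CpG variant. Among those called in WT alone the shares were 10.7% (10.5% to 10.9%) and 1.24% (1.17% to 1.32%). In regions called in both, which include the members, they were 21.6% and 2.44%.

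Individual members were ranked by the lower bound of the interval, which favours a high ratio with many reads. The first was in an intron of *Spock3*, which codes for an extracellular proteoglycan (chr8:63334939-63335730, 384 kb into the gene). It held 112 WT and 616 TCKO counts, and its log2 ratio was 3.17, with an interval of 2.89 to 3.47. An intergenic region 94.6 kb upstream of *Nkain2*, a membrane protein that interacts with the sodium pump, held 82 and 417 counts, and a region 702 kb upstream of *1700009N14Rik* held 54 and 222. A region in an exon of *Clec12b*, a C-type lectin receptor, held 31 and 139 counts and 2 AP-1 sites. A region in an intron of *Grm8*, a metabotropic glutamate receptor, held 64 and 253 counts, and one in an intron of *Rgs6*, a regulator of G protein signalling, 82 and 294. The next were upstream of *Setbp1* (60 and 233 counts), *Nmur2*, a neuromedin U receptor (70 and 266), *4931429L15Rik* (40 and 158) and *Gpc6*, a heparan sulfate proteoglycan (81 and 288). A region in an intron of *Tbc1d20*, 8.75 kb from its start, held 47 and 188 counts. One 5.18 kb upstream of *Zbtb37* held 107 and 376. Of these 12, 8 were more than 100 kb from the nearest protein-coding start and 5 held the consensus.

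The members with most TCKO counts were of another kind, with ratios near the cutoff. The region 25 kb from the start of *Ly6c2*, a surface antigen of monocytes, had 2252 WT and 3016 TCKO reads. Its ratio was 1.14 on the log2 scale, between 1.06 and 1.22. Regions near *Rpusd4* (1288 and 1591), *Aida* (1196 and 1528) and *Tex14* (1045 and 1285) had ratios of 1.02, 1.07 and 1.01. Those nearest to *Rpusd4* and *Tex14* were mostly repeat-masked. *Sfi1* (891 and 1219), *Zfp692* (916 and 1176), *Pex5l* (796 and 1104) and *Asb7* (851 and 1074) followed with 1.05 to 1.19, and *Zfp808* (705 and 1194) stood at 1.48. In 5 of these 10 regions the whole interval was past the cutoff, and 2 held the AP-1 consensus.

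The exception among them was *Prrx1*, the homeobox gene of limb mesenchyme whose regulatory sequence drives the Cre transgene. A region 1190 bp upstream of its start (chr1:163314373-163315426) had 475 WT and 1391 TCKO reads, and its ratio was 2.27 on the log2 scale (2.12 to 2.42). The adjoining region, 428 bp upstream and without a WT peak, had 160 and 384 reads and a ratio of 1.97 (1.71 to 2.25). The region over the start held 953 and 851, a ratio of 0.55. The other 38 regions nearest to *Prrx1* had ratios from -1.08 to 0.63 with a median of -0.29, and 25 of them were below 0. Whether WT carried the transgene is not given, and reads from it and reads from the gene's own upstream sequence cannot be told apart in these counts.

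At promoters the members were few and CpG-poor. The 171 promoter members belonged to 163 genes and had a median of 2 CpG per 200 bp, against 14 at the promoters of the rest. Their median TCKO count was 131, against 412. The 10 with most TCKO counts were those of *Tex14*, a protein of germ-cell bridges (1045 WT and 1285 TCKO counts), *Gm10722* (497 and 666), *Themis3* (407 and 524), *Fads3*, a member of the fatty acid desaturase family (386 and 478), *Ankk1* (322 and 421), *Col7a1*, the collagen of anchoring fibrils (298 and 412), *Gm21738* (290 and 411), *Tm6sf2* (274 and 387), *R3hdm2* (302 and 369) and *Clec2h*, a lectin-like receptor (209 and 364). Their log2 ratios ran from 1.0 for *R3hdm2* to 1.51 for *Clec2h*. The regions of *Col7a1*, *R3hdm2* and *Clec2h* held the AP-1 consensus, and in those of *Tex14*, *Gm10722* and *Gm21738* more than 50% of the window was repeat-masked.

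Members had 4831 different nearest protein-coding genes, of which 2883 had a single member, 322 had 5 or more and 35 had 10 or more. The nearest start need not belong to the gene that a region acts on. Among the genes with most members, *Cntnap2*, an adhesion protein that organises axonal potassium channels, had 16 members among 46 eligible regions, with log2 ratios from 1.03 to 1.81. *Anks1b*, a postsynaptic scaffold, had 15 of 51, *Ctnnd2*, the delta-catenin of dendrites, 14 of 38, and *Tenm4*, a teneurin, 14 of 81. *Nova1*, a neuronal splicing factor, had 13 of 34, *Rgs6* 13 of 52 and *Grm7*, a metabotropic glutamate receptor, 12 of 25. *Mettl15*, a methyltransferase of the mitochondrial ribosome, had 13 of 35, with its highest member 938 kb away, and *Magi1*, a junction scaffold, had 12 of 68, tied in number with *Flrt2*. The other 3 genes of the first 12, *Gm21119* (19 of 26), *Gm31371* (13 of 18) and *Gm15319* (12 of 28), lay together on chromosome 8.

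That stretch of chromosome 8, from 19681049 to 20996504, stood apart from all other clusters. It held 54 members among 90 eligible regions (60%), and 96.8% of its 216 regions of any kind had a ratio above 0, with a median log2 ratio of 1.13. Members there had 32 to 198 WT and 60 to 304 TCKO counts, and 3.70% held the AP-1 consensus. The window from 20 to 21 Mb alone had 47 members, while the next windows of the genome had 15. These were chromosome 8 at 24 to 25 Mb, with *Tcim* and *Adam18* (15 of 64), and chromosome 9 at 122 to 123 Mb, with *Snrk* and *Abhd5* (15 of 86). They were followed by windows around *Anks1b* (14 of 43), *Htr2a*, a serotonin receptor (14 of 62), *Sfi1* (14 of 101), *Mettl15* and *Kcna4* (13 of 27) and *Ano5* and *Slc17a6* (12 of 44). Without the stretch on chromosome 8 the members numbered 9146 and 43.2% had the consensus.

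Regions close to a member tended to be higher as well. Eligible non-members within 1 kb of a member had a median log2 ratio of 0.52 (522 regions), at 1 to 2 kb 0.30, at 2 to 5 kb 0.21, at 5 to 10 kb 0.11, at 10 to 50 kb 0.07 and at 200 to 1000 kb 0.02. The median over all eligible non-members was 0.05.

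For gene functions, 30 lists of genes were examined by the share of eligible regions nearest to their genes that were members, against 7.99% for all genes. Regions at the same gene are not independent, and the intervals treat them as if they were. Lists of receptors, adhesion molecules and channels had the highest shares. Glutamate and GABA receptors, the main receptors of excitatory and inhibitory transmission, had 81 members among 349 regions, 23.2% (19.1% to 27.9%). *Grm7* had 12 of 25, *Grik2*, a kainate receptor, 9 of 18 with its highest region at 41 WT and 125 TCKO counts and *Grm8* 8 of 19. Of 41 genes with an eligible region, 24 had a member.

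Synaptic adhesion molecules had 221 members among 1182 regions, 18.7% (16.6% to 21%), led by *Cntnap2* and *Tenm4*, with 12 of 71 for *Flrt2*. Cadherins and protocadherins, calcium-dependent adhesion molecules, had 130 of 823, 15.8% (13.5% to 18.4%). *Pcdh17* had 9 of 20 (highest 243 and 490 counts), *Pcdh9* 9 of 47, *Cdh18* 8 of 32 and *Pcdh18* 8 of 42. Ion channel genes had 98 of 719, 13.6% (11.3% to 16.3%), with *Kcnn2*, a calcium-activated potassium channel, at 8 of 23, *Kcna4* at 7 of 19, *Kcnma1* at 7 of 58 and *Kcnj3* at 6 of 14.

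Receptors of axon guidance had 80 of 633, 12.6% (10.3% to 15.5%), and their ligands 60 of 607, 9.88% (7.76% to 12.5%), the latter with the background inside the interval. The ephrin receptors *Epha7* and *Epha4* had 10 of 50 and 10 of 60, and the netrin receptors *Unc5d* and *Dcc* 8 of 19 and 7 of 18. Among ligands, *Efnb2* had 10 of 64, *Slit2* 8 of 38, *Sema6d* 8 of 41 (highest 80 and 230 counts) and *Efna5* 8 of 72. The growth factor list outside the FGF, WNT and BMP families had 72 of 714, 10.1% (8.08% to 12.5%), with *Nrg1* at 6 of 48 and its receptor *Erbb4* at 5 of 18.

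**Figure D5:**
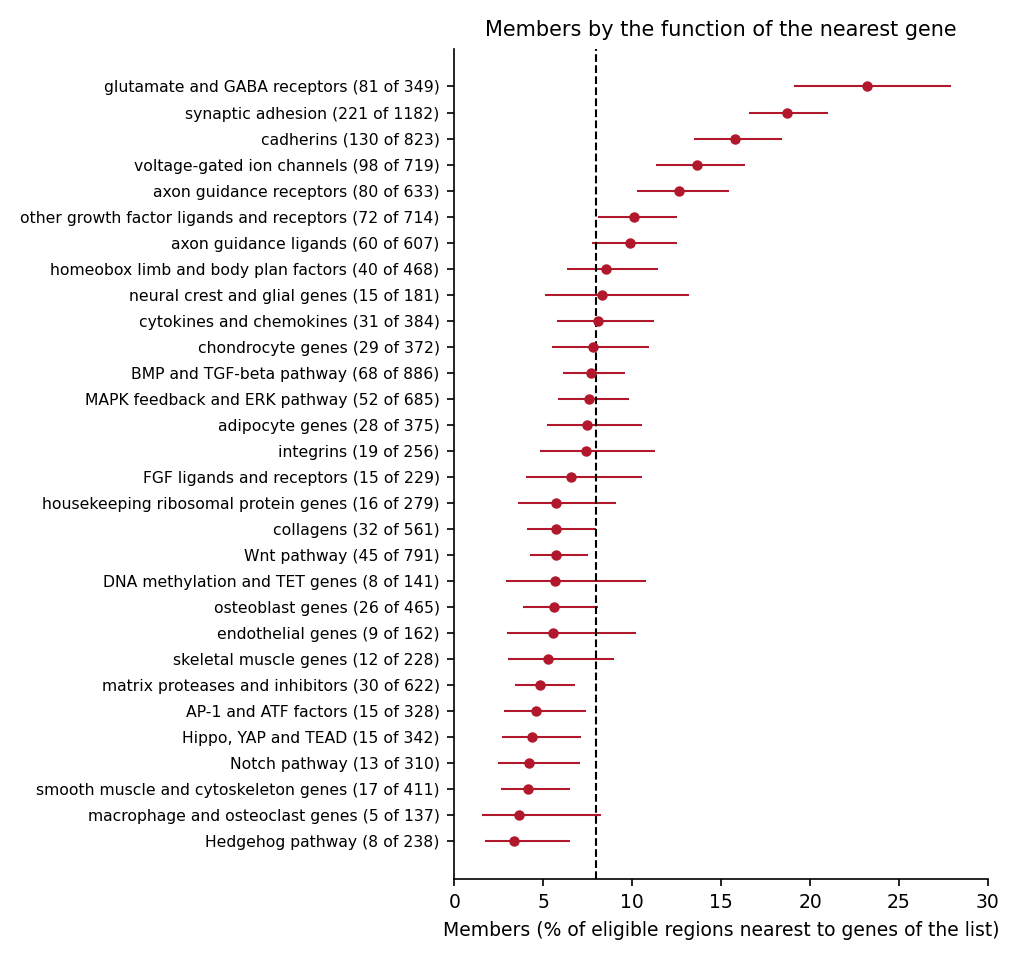
Members as a percentage of the eligible regions whose nearest start belonged to a gene of each list, with 95% Wilson intervals and the numbers in parentheses; the dashed line is the 7.99% of all genes. Glutamate and GABA receptors are at the top (23.2%) and the Hedgehog pathway at the bottom (3.36%).

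The lists also differed in distance. Regions beyond 50 kb of a start made up 61.0% of those at glutamate and GABA receptors, 69.5% at synaptic adhesion molecules and 75% at cadherins, against 33.9% for all genes. Beyond 50 kb the shares of members were 31.0%, 22.9% and 19%, against 12.1% for all genes. Within 50 kb they were 11.0%, 9.14% and 6.31%, against 5.88%. For axon guidance receptors they were 17.2% and 3.72%, the latter below the value of all genes. A single cut at 50 kb does not hold distance fixed. For all genes the share still rose from 8.93% at 50 to 100 kb to 23.4% beyond 500 kb. The lists were not compared at finer distances or at fixed counts, so the part of distance in their shares was not tested.

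Lists of skeletal and signalling genes were near or below the background. Osteoblast genes had 26 of 465, 5.59% (3.84% to 8.07%). *Cdh11*, the cadherin of osteoblasts, had 8 of 65, *Dcn*, decorin, 3 of 20 and *Runx2* 3 of 48. The 3 members at *Runx2*, the master factor of the osteoblast lineage, were 143, 226 and 203 kb from its start, the first and last in introns of *Supt3*. They held 55 and 68, 85 and 105, and 93 and 183 counts. Their log2 ratios were 1.01 (0.513 to 1.53), 1.01 (0.611 to 1.43) and 1.68 (1.33 to 2.05), so the first 2 intervals include the cutoff. Each had the AP-1 consensus, as did 42.9% of all members. Chondrocyte genes had 29 of 372, 7.80%, with *Sox5* at 6 of 45 and *Sox9* at 4 of 67. Collagens had 32 of 561, 5.70% (4.07% to 7.94%), and matrix proteases and their inhibitors 30 of 622, 4.82% (3.4% to 6.8%).

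Among pathways, BMP and TGF-beta genes had 68 of 886, 7.67%, with 9 of 60 at *Inhba*, an activin subunit, 6 of 27 at *Bmp2* and 6 of 28 at the receptor *Bmpr1b*. Wnt genes had 45 of 791, 5.69% (4.28% to 7.53%), with 6 of 25 at *Wnt5a*. FGF genes had 15 of 229, 6.55%. The list of MAP kinase feedback and ERK pathway genes had 52 of 685, 7.59%. *Map3k7* had 9 of 47 and *Dusp4*, a phosphatase of MAP kinases, 5 of 23. Notch, Hippo and Hedgehog genes had 4.19%, 4.39% and 3.36% (1.71% to 6.49%). Genes of limb and body plan factors were at 8.55%, with 7 of 28 at *Tbx3*, 6 of 14 at *Shox2* and 4 of 14 at *Pitx1*.

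The genes of AP-1 and ATF factors themselves had 15 of 328, 4.57% (2.79% to 7.41%), below the background. *Bach2*, a bZIP repressor, had 6 of 46, *Maf* 4 of 52, *Bach1* 2 of 25 and *Jun* 2 of 29, the higher of which held 186 and 317 counts 16.6 kb from the start. A member 103 kb upstream of *Fosl2* held 87 and 159 counts. DNA methylation genes had 8 of 141, 5.67%, of which 5 were at *Mbd2*, a methyl-CpG-binding protein, and 1 each at *Dnmt1* (120 and 161 counts), *Dnmt3a* (154 and 221) and *Idh2* (63 and 115). Integrins were at 7.42%, cytokines and chemokines at 8.07%, adipocyte genes at 7.47%, neural crest and glial genes at 8.29%, endothelial genes at 5.56%, skeletal muscle genes at 5.26%, smooth muscle and cytoskeleton genes at 4.14%, macrophage and osteoclast genes at 3.65% and ribosomal protein genes at 5.73%.

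The cell type was checked by the counts at the promoters of marker genes. All 8 osteoblast markers had a promoter region, with 5918 WT and 3429 TCKO counts in all, a log2 ratio of -0.07. Macrophage and osteoclast markers had 2110 and 1042 counts (-0.30), with no promoter region at *Ptprc* or *Itgam*. Endothelial markers had 795 and 582 counts (0.27), with no promoter region at *Pecam1*, *Tie1* or *Emcn*. Neural markers had 929 and 613 (0.12), with none at *Sox10* or *Gfap* among others. Chondrocyte markers had 2668 and 1590 (-0.03), with none at *Comp* or *Matn1* and 1806 of the WT counts at 1 gene. All 5 keratinocyte or epithelial markers also had a promoter region, with 364 and 235 counts (0.09). The 6 skeletal muscle markers had no promoter region. Promoters can be open in cells that do not express the gene, so other cells in the cultures cannot be measured by these sums, and their part in the members was not tested.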

How the data were processed

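The authors aligned reads end to end with STAR 2.7.0e to GRCm38, kept uniquely mapped reads and, after pooling replicates by genotype, ran the MACS2 peak caller with summits. Removal of duplicate or mitochondrial reads and a shift for Tn5 were not stated. The deposited table gives raw read counts per region (56898657 for WT, 34608167 for TCKO). The deposited peak lists give a score, a fold enrichment (a ratio to local background), −log10 p-values and q-values, and a summit offset, an other unit (bp). The offset placed the summits, and the score column, which restates the q-value, was not used.

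TCKO counts were multiplied by the ratio of the totals, 1.64, before the log2 ratio was taken. Peaks were matched by 1 bp of overlap. Genes and starts were taken from GENCODE M21, sequence and masking from RefSeq GRCm38. Pileups were solved from fold and p-value. Scripts used Python 3.11.15, R 4.3.3, edgeR 4.0.16 and DESeq2 1.42.0 (the last 2 for scaling factors only) and were tested on simulated data. Motifs were searched on both strands; CTCF, NF-kB, SRF and MEF2 were searched by consensus.

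The members and gene lists were chosen with earlier results of these data known. Regions named are the first 12 by lower bound, the 10 with most TCKO counts overall and at promoters, 5 on each side of the cutoff, the 12 genes and 8 windows with most members, and up to 4 genes per list, some of which are not reported here. The members at *Fosl2*, *Dnmt1* and *Dnmt3a*, the sequences with a CpG variant, the single-base variants, the chromosome 8 stretch and the neighbours of *Prrx1* were chosen after values were seen.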

Additional observations from a re-analysis of the deposited data

How the results depend on the processing

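No paired analysis was possible because each genotype has a single merged column, and leaving out a replicate or a test with edgeR or DESeq2 could not be run for the same reason. The split of higher against lower regions and the width classes were added after the data were seen. The number of members, 9200, depended on scaling: no scaling gave 795, the peak caller background (factor 1.08) 1278, removal of a loess trend with mean count 4170 and of the median in 20 GC bins 5685, while the TMM and DESeq2 factors gave 7537 and 7769. At least 200 TCKO counts left 1722, an interval wholly past the cutoff 2747, peaks with a −log10 q of at least 10 in both lists 2076 and a fold of 3 1362. With no scaling, the peak caller background, GC bins, 200 counts, the interval and the stricter peaks, the share with the AP-1 consensus was 44.8%, 47.0%, 44.0%, 40.2%, 44.0% and 48.5%. It was 47.7% around TCKO summits and 53.1% over whole regions, where the rest also rose, to 24.3% and 30.8%. With the first 5 of these settings the promoter share was 1.38%, 1.33%, 2.20%, 2.50% and 1.57%, with 2 kb it was 3.34% and with all annotated genes 5.62%. The AP-1 share was above that of the rest in all 17 alternatives and the promoter share below it in all 16. The median CpG number was 1 in all 16. Leaving out the chromosome 8 stretch, mostly masked windows or promoters, added after the data were seen, gave 9146, 8491 and 9029 members. With median counts of 73 and 113, counting error limits single members.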

Other observations

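The X chromosome, which the rule left out, had 2156 shared regions with at least 60 TCKO counts, of which 156 (7.24%, 6.22% to 8.41%) were at least 2-fold higher. Of the 467 with the AP-1 consensus 74 were higher (15.8%, 12.8% to 19.4%), and of the 1689 without it 82 (4.85%, 3.93% to 5.99%). None of the 31 X-linked regions with a CpG variant and no consensus was. A count of 3 in 31 would be 9.68%, and the Wilson interval reaches 11%. On the autosomes the same class had 443 members among 2400 regions, or 18.5% (17.0% to 20.1%), which lies above that bound. The median log2 ratio of the class was -0.01 on the X chromosome and 0.32 on the autosomes. The autosomal result for the CpG variants was thus not repeated in these few X-linked regions.

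RefSeq annotates 1006 enhancers on the autosomes. Of the 442 eligible regions that overlapped one, 13 were members, 2.94% (1.73% to 4.97%), against 7.99% of all eligible regions, and of the 123 that overlapped one noted as active in limb, 3 were. The members included an element near *Fgf10* active in facial mesenchyme (133 WT and 200 TCKO counts), an enhancer 33.5 kb from the start of *Trp63*, the factor of stratified epithelia (140 and 230), the *Pomc* enhancer nPE1 of arcuate neurons (58 and 74), an enhancer of *Gfi1* active in dorsal aorta and fetal liver (41 and 69) and an element upstream of *Adgra2* noted for heart and blood vessels (325 and 410). Near *Oaf*, an element noted for somite and limb contained 1 member (118 and 155 counts), and another member touched its edge (70 and 109).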
